A study of Mus musculus with 9 samples.

Results

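Krüppel-like factors are zinc-finger transcription factors, and 10 of their genes were followed here in mouse kidney: Klf2, Klf3, Klf4, Klf5, Klf6, Klf9, Klf10, Klf12, Klf13 and Klf15. They were taken by gene symbol from tables of 23282 symbols, and each of the 10 symbols had 1 row. Kidney RNA came from 5 Bmal1 -/- libraries (knockout, KO) and 4 wild-type libraries (WT), all of the strain C57BL/6, deposited as a study of how the clock system bears on chronic kidney disease. Bmal1, gene symbol Arntl, is the activator at the centre of the circadian clock. The labels state no further allele, treatment, sex, age or hour of sampling for either genotype, and do not say which part of Bmal1 was deleted. Nor do they state whether libraries are different mice, and the p-values below refer to library-to-library spread, which may be technical.

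All Krüppel-like factors bind GC-rich or CACCC DNA boxes through zinc fingers at the C terminus, and they differ in the N-terminal part that recruits partners. Klf2, Klf4, Klf5 and Klf6 act mainly as activators, Klf3 and Klf12 repress through CtBP, and Klf9, Klf10 and Klf13 can repress through Sin3. Klf15 stands apart and is known for control of amino acid breakdown, glucose production and podocyte differentiation. Klf9 and Klf15 are known glucocorticoid-induced genes, and Klf9, Klf10 and Klf15 have been described as rhythmic genes downstream of the clock in several tissues.

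The RefSeq promoter table (GRCm38.p6) held 8 of the 10 genes, without Klf5 and Klf10, and a stretch of 220 bases, from 250 to 31 bases before the gene start, was searched on both strands. Distances are counted from the RefSeq starts, which are not always those of the GENCODE gene positions given with each gene: the Klf2 stretch ends just before the GENCODE start, and the stretches of Klf3 and Klf12 reach into or lie within the GENCODE gene. Promoters are shown for Klf2 and Klf4, the members that rose in KO, and for Klf15, a clock-linked member that had no call. Capitals mark a MEF2 site (CTA and TAG with any 4 bases between) in Klf2 and E-boxes (CACGTG), the letters that Bmal1 with Clock binds, in Klf4 and Klf15. MEF2 factors are known to activate Klf2 and Klf4 downstream of the kinase ERK5.
Klf2, chr8:72318812-72319031, + strand: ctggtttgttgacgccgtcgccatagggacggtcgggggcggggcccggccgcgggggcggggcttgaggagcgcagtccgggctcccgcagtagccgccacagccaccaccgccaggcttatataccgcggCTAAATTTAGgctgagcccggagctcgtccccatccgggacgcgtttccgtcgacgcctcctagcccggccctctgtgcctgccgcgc
Klf4, chr4:55532506-55532725, - strand: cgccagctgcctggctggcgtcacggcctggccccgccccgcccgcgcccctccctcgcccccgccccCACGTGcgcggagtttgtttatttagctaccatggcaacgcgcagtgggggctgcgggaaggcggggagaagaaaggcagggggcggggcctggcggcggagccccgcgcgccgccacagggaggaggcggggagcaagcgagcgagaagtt
Klf15, chr6:90462326-90462545, + strand: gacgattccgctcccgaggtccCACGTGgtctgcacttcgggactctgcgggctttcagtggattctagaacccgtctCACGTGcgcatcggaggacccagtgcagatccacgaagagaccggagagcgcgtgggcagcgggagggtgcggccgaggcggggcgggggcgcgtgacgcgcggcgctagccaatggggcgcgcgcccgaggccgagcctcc

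In these stretches Klf15 held 2 E-boxes, beginning 228 and 172 bases before the start, Klf4 held 1 at 182 bases and Klf6 held 1 at 43 bases. The E-box letters were in 5.01% of all 32851 promoter stretches of that length. The MEF2 letters occurred in Klf2 only among the 8, 118 bases before the start, and in 2.83% of all stretches. GC boxes (GGGCGG) were in 6 of the 8, against 28.5% of all stretches. No member stretch held a ROR half-site (AGGTCA, 12.5% of all) or a glucocorticoid response element (GNACA and TGTNC with any 3 bases between, 0.362% of all), which says only that these letters are not in this window. No matches of different motifs overlapped each other in any of the 8.

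Each library was sequenced from the 3′ end with about a single tag per transcript, so levels of different genes need no correction for length. Values are given as deposited, on the scale log2(x + 1), where x is a number of reads after the authors' own adjustment to a common library size. Adjusted totals were 11765219 to 13486444 per library, and the raw depth is unknown. Arntl had values of 5.954, 5.647, 5.985, 5.802 and 5.862 in KO libraries 1 to 5, against 6.68, 6.263, 7.059 and 6.762 in WT libraries 1 to 4 (difference -0.84, SE 0.21, limma adjusted p = 0.0112). A 3′ tag outside the deleted part would still be read, so this does not check the labels. WT 2 stood apart from the other WT libraries in immediate early genes, whose mean of 15 tested genes was 7.17 there and 5.14 to 5.94 in WT 1, 3 and 4. Red blood cell genes took 3.56% of x in KO 4 and 0.899% to 1.75% in the other KO libraries, against 1.55% in WT 2 and 0.621% to 0.732% in the other WT libraries. Without WT 2 and KO 4 together, the calls of the 10 members were the same, Klf2 and Klf4, and their values are given below.

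All 10 members were expressed above the filter (x of at least 10 in at least 4 libraries) and were tested with 13481 genes in all. Klf9 was by far the most abundant, with x of 7032 to 9095 over the 9 libraries, and Klf5 the least, with 45.5 to 170.1. Klf9 made up 57.0% to 62.9% of the summed x of the 10 members in KO and 65.7% to 68.3% in WT. That sum was 11897 to 12694 in KO and 11176 to 13637 in WT, so the total of the family overlapped between genotypes while its makeup shifted away from Klf9. The share is a description, since a rise of any other member lowers it.

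By mean level, the KO order was Klf9, Klf3, Klf6, Klf2, Klf13, Klf15, Klf4, Klf12, Klf10 and Klf5. The WT order was Klf9, Klf3, Klf6, Klf13, Klf15, Klf2, Klf12, Klf4, Klf10 and Klf5, so that Klf2 and Klf4 each stood lower in the WT order. Klf9 lay above Klf3 in every library of both genotypes, by 2.50 in KO and 2.91 in WT on the log2 scale. Klf3 and Klf6 had overlapping ranges in both genotypes and a mean gap of 0.12 in KO and 0.03 in WT. Besides Klf9 and Klf3, ranges of neighbours were separate between Klf6 and the next gene in both genotypes, between Klf12 and Klf10 in KO, and between Klf4, Klf10 and Klf5 in WT. All other neighbours overlapped.

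**Figure D1:**
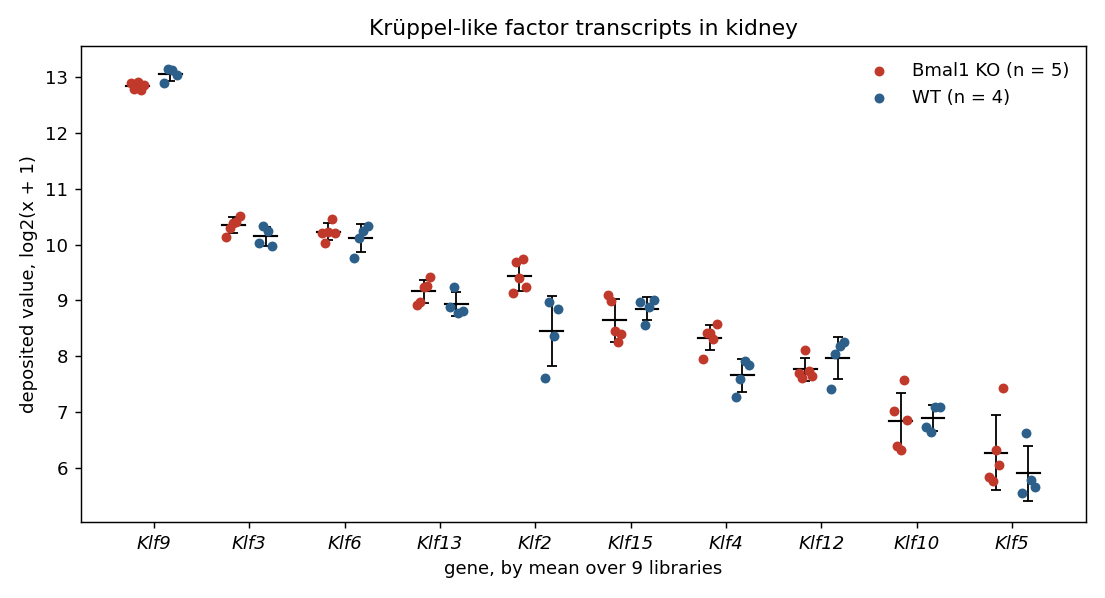
Deposited values, log2(x + 1), of the 10 Krüppel-like factors in each library, with genes ordered by their mean over 9 libraries. Points are libraries, bars the mean ± SD of 5 KO (red) and 4 WT (blue) libraries; Klf2 and Klf4 are the genes whose KO points all lie above the WT points.

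Of the 10 members 2 rose in KO, Klf2 and Klf4, and none fell, by limma at an adjusted p below 0.05. Over all tested genes 14.4% were called in either direction, 6.16% higher and 8.2% lower in KO. With 10 members, 2 calls (20%) are not far from that background. At an unadjusted p below 0.05 there were 3 members, the third being Klf9, beside 27.5% of all genes tested. The median difference of the 10 members was 0.16 on the log2 scale, beside 0.0002 over all genes tested. The same 2 genes, Klf2 and Klf4, were those without overlap between genotypes, where 5.86% of all tested genes lay entirely higher in KO and 8.46% entirely lower.

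Klf2, which keeps vascular endothelium quiescent and responds to blood flow, lies on chromosome 8 from 72319033 to 72321656 on the + strand (GRCm38). It had values of 9.125, 9.694, 9.408, 9.736 and 9.238 in KO libraries 1 to 5, against 7.598, 8.972, 8.358 and 8.852 in WT libraries 1 to 4. Every KO library lay above every WT library, with WT 1 far below the other WT libraries. The difference for Klf2, a rise of 1.00 on the log2 scale, passed the test (SE 0.22, limma adjusted p = 0.00444), a 1.99-fold difference with a 95% interval of 1.45 to 2.74. Without WT 1 the difference was 0.71 (adjusted p = 0.0099), without WT 2 it was 1.17 (adjusted p = 0.0011), and without WT 2 and KO 4 it was 1.10 (adjusted p = 0.00384). With a variance prior that does not follow expression level, the call was narrowly lost (adjusted p = 0.0507).

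Klf4, one of the pluripotency factors and in adult tissue a regulator of epithelial differentiation, endothelium and podocytes, lies on chromosome 4 from 55527143 to 55532466 on the - strand. Its values were 7.955, 8.407, 8.417, 8.305 and 8.571 in KO, against 7.268, 7.59, 7.907 and 7.839 in WT. The lowest KO library, KO 1, lay just above the highest WT library, WT 3. Klf4 rose by 0.68 (SE 0.16, limma adjusted p = 0.00791), 1.60-fold with a 95% interval of 1.27 to 2.03. The difference was 0.66 without WT 2 (adjusted p = 0.0147) and 0.67 without WT 2 and KO 4 (adjusted p = 0.0269). KO 1 was the lowest KO library for both Klf2 and Klf4, and WT 1 the lowest WT library for both.

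Klf5 promotes proliferation and is known in kidney from the collecting duct. It is on chromosome 14 (99298691 to 99315036, + strand) and had values of 5.821, 5.751, 6.311, 6.038 and 7.419 in KO, against 5.538, 6.611, 5.778 and 5.65 in WT. Both ranges were set by 1 high library, KO 5 and WT 2. The difference of 0.37 (SE 0.32, limma adjusted p = 0.49) did not pass, and it was 0.09 without KO 5 (adjusted p = 0.884) and 0.61 without WT 2. Klf5 had the widest interval of the 10, from 0.814-fold to 2.06-fold.

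Klf6, an injury-induced factor that supports mitochondrial function in podocytes, is on chromosome 13 (5861482 to 5870394, + strand). It had values of 10.204, 10.034, 10.229, 10.458 and 10.215 in KO, against 9.756, 10.125, 10.241 and 10.337 in WT. WT 1 was low and the other 8 libraries overlapped. Its difference was 0.11 (SE 0.12, limma adjusted p = 0.60), with an interval of 0.904-fold to 1.29-fold. Of the 4 activators, then, 2 rose and 2 had no call.

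Among the CtBP-binding repressors, Klf3 (chromosome 5, 64803388 to 64832901, + strand), known from erythroid and fat cells, had 10.141, 10.289, 10.39, 10.407 and 10.515 in KO, against 10.024, 10.342, 10.242 and 9.978 in WT. KO 3, 4 and 5 lay above all WT libraries, and the difference was 0.20 (SE 0.11, limma adjusted p = 0.253). Exons of Klf3 overlap the noncoding transcript Gm20033 on the other strand, and the strand setting of the counting is not given in the sources used here. Klf12, which represses the gene of transcription factor AP-2α, is on chromosome 14 (99870632 to 100284679, - strand). It had 7.701, 7.609, 8.105, 7.733 and 7.65 in KO, against 7.411, 8.028, 8.18 and 8.248 in WT. KO 3 was far above the other KO libraries and WT 1 far below the other WT libraries, and the difference of -0.21 (SE 0.17, adjusted p = 0.482) did not pass. Without WT 1 it was -0.39 (adjusted p = 0.12) and without WT 4 -0.11 (adjusted p = 0.769).

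The clock- and glucocorticoid-linked members had no call. Klf9 (chromosome 19, 23141226 to 23168134, + strand) had 12.906, 12.792, 12.92, 12.78 and 12.863 in KO, against 12.899, 13.151, 13.138 and 13.05 in WT. WT 1 fell within the KO range, and the other 3 WT libraries lay above all KO libraries. Klf9 had the smallest spread of the members, with an SD of 0.06 in KO and 0.12 in WT. Its difference was -0.21 (SE 0.10, limma adjusted p = 0.178), or 0.866-fold with an interval of 0.751 to 0.999.

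Klf10, induced by TGF-β and by glucose, is on chromosome 15 (38291463 to 38300706, - strand). It had 7.019, 6.385, 6.311, 7.569 and 6.844 in KO, against 6.718, 6.644, 7.09 and 7.085 in WT. The KO libraries lay on both sides of the whole WT range. The difference was -0.06 (SE 0.23, limma adjusted p = 0.904), with an interval of 0.682-fold to 1.35-fold. Its sign was not stable: the difference was 0.07 without KO 3 and -0.24 without KO 4, and -0.32 (adjusted p = 0.369) without WT 2 and KO 4.

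Klf15 (chromosome 6, 90462576 to 90475238, + strand) had 9.1, 8.996, 8.45, 8.254 and 8.395 in KO, against 8.961, 8.562, 8.872 and 9.009 in WT. KO 3, 4 and 5 lay below all WT libraries, while KO 1 lay above them all and KO 2 within their range. Its difference was -0.21 (SE 0.17, limma adjusted p = 0.459), with an interval of 0.674-fold to 1.11-fold. Leaving out 1 library moved it between -0.33 (without KO 1) and -0.12 (without KO 4), and with Rn45s as a covariate it was -0.03 (adjusted p = 0.943). The E-box letters in its promoter stood in a gene with no call, as in Klf6, while Klf4 held them and rose and Klf2 held none and rose.

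Klf13, known for activating the chemokine gene Ccl5 in T cells, is on chromosome 7 (63886351 to 63938915, - strand). It had 8.923, 8.977, 9.246, 9.253 and 9.411 in KO, against 8.887, 9.241, 8.778 and 8.802 in WT. WT 2 lay above KO 1 and KO 2 and just below KO 3, and the difference of 0.235 (SE 0.13, limma adjusted p = 0.272) did not pass. Without WT 2 and KO 4, the differences were 0.67 for Klf5, 0.06 for Klf6, 0.25 for Klf3, -0.18 for Klf12, -0.16 for Klf9, 0.32 for Klf13 and -0.21 for Klf15, none with a call. A p above the threshold does not show that these 8 genes were alike in both genotypes, and their intervals give the sizes that the data allow.

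**Figure D2:**
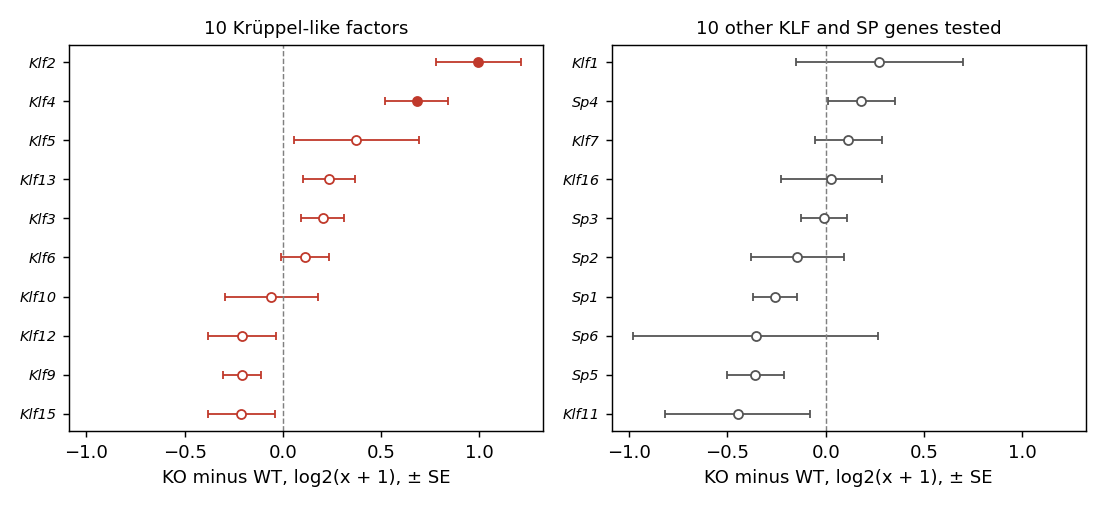
Difference KO minus WT on the scale log2(x + 1), with SE, for the 10 Krüppel-like factors (left) and the 10 other KLF and SP genes tested (right). Filled points have a limma adjusted p below 0.05: Klf2 at 1.00 and Klf4 at 0.68 are the filled ones.

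The rest of the family showed no call. Of 16 other KLF and SP genes 10 were tested and none passed by limma (2 at an unadjusted p below 0.05, median difference -0.08). Klf8, Klf14, Klf17, Sp7, Sp8 and Sp9 were below the filter, the last 3 at 0 in all libraries. Sp5, a Wnt-responsive factor, had 7.453, 7.338, 7.365, 7.211 and 7.231 in KO, against 7.908, 7.681, 7.548 and 7.571 in WT, lower in every KO library but without a call (-0.36, SE 0.14, limma adjusted p = 0.114). The ubiquitous factor Sp1 was at -0.26 (adjusted p = 0.144) and the Sin3-binding Klf11 at -0.45 (adjusted p = 0.473).

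Cofactors and upstream kinases were likewise mostly without a call. Of 16 tested 1 fell and none rose (median difference -0.01). The one that fell was Wwp1, a ubiquitin ligase that marks Klf2 and Klf5 for breakdown, with 10.657, 10.539, 10.54, 10.551 and 10.534 in KO, against 10.998, 10.908, 11.23 and 11.186 in WT. All KO libraries lay below all WT libraries, by -0.52 on average (SE 0.10, limma adjusted p = 0.00144). The acetyltransferase Kat2b was at -0.37 (adjusted p = 0.0748) and the corepressor Sin3b at 0.22 (adjusted p = 0.171).

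Known targets of Klf2 and Klf4 in endothelium did not move as a block. Of 8 tested 2 rose and none fell (median difference 0.56). The sphingosine-1-phosphate receptor S1pr1, which Klf2 activates, rose by 0.91 (SE 0.25, limma adjusted p = 0.0197), a call lost in 5 of 23 alternatives, so that without KO 2, KO 4 or WT 1 the list had 1 that rose. Endothelin Edn1, which Klf2 represses in cultured endothelium, had 5.96, 5.45, 5.914, 6.83 and 6.338 in KO, against 4.806, 4.722, 3.873 and 4.592 in WT, and rose by 1.60 (SE 0.31, adjusted p = 0.00181). Nitric oxide synthase Nos3, a classical Klf2 target, was at 0.91 (SE 0.34, adjusted p = 0.0859) with overlapping groups.

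Markers of the cells that carry Klf2 and Klf4 differed too. In bulk tissue, more cells of a type and more RNA per cell cannot be told apart. Of 12 endothelial markers 6 rose and none fell (median difference 0.45), and their summed x was 6381 to 11109 in KO and 4869 to 7020 in WT, with none at 0 in all libraries. Plvap, of endothelial diaphragms, rose by 1.03 (SE 0.16, limma adjusted p = 0.000236), Pecam1, an endothelial junction protein, by 0.83 (SE 0.15, adjusted p = 0.000941) and Ehd3, of glomerular endothelium, by 0.69 (SE 0.18, adjusted p = 0.0156). Kdr (-0.11, adjusted p = 0.752), Flt1 (0.13, adjusted p = 0.773) and Cdh5 (0.27, adjusted p = 0.443) had no call. The calls of Eng and Tie1 were each lost in 8 of 23 alternatives. Over the 12 markers, leaving out WT 1 gave 3 that rose, leaving out WT 2 gave 7, and leaving out WT 2 and KO 4 gave 5. The mean log2 level of the 12 markers was 9.04 ± 0.27 in KO and 8.52 ± 0.17 in WT (SD, n = 5 and 4; exact permutation p = 0.0238, two-sided, adjusted over 13 library measures 0.0516).

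Set against that mean within each library, Klf2 stood at 0.47, 0.60, 0.47, 0.34 and 0.11 in KO, against -0.67, 0.31, -0.22 and 0.27 in WT. The genotypes overlapped, and the difference was 0.48 (exact permutation p = 0.0476, two-sided, adjusted over 4 such measures 0.19). Klf4 differed by 0.16 on the same footing (exact permutation p = 0.27, adjusted 0.54), with overlapping genotypes. The part of endothelial content in the rise of Klf2 and Klf4 was not tested further. Of 8 podocyte markers 2 rose (median 0.37; cyclin-dependent kinase inhibitor Cdkn1c 0.56, SE 0.11, limma adjusted p = 0.00155; 1 without any 1 of KO 2, 3, 4 or 5 or WT 1 or 4), and their summed x was 4769 to 5428 in KO and 3641 to 4203 in WT. The part of podocyte content in the rise of Klf4 was not tested.

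Klf2, Klf4, Klf6 and Klf10 also respond quickly to stimuli, like immediate early genes. Of 15 tested immediate early genes 1 rose, Myc (2.21, SE 0.66, limma adjusted p = 0.0324), and none fell (median difference 0.91). Without any 1 of KO 2, 3, 4 or 5 or WT 3, none passed. Myc itself was lowest in WT 2 (0.13, against 1.961 to 4.06 in the other WT libraries) and had no call without that library (adjusted p = 0.0611). Every KO library but only WT 4 (4.06) of the WT libraries reached the filter level of x for Myc. The Myc difference thus rests largely on WT values near the floor. Without WT 2, the WT library with the highest list mean, 8 other early genes rose, and without WT 2 and KO 4 it was 7. Egr1, a zinc-finger early gene chosen after its values were seen, showed the spread: 8.706, 10.966, 11.136, 11.449 and 8.237 in KO, against 7.554, 11.384, 6.725 and 8.345 in WT. The list mean was 6.36, 6.89, 7.40, 7.17 and 6.20 in KO, against 5.29, 7.17, 5.14 and 5.94 in WT, a difference of 0.92 (exact permutation p = 0.111, two-sided, adjusted over 13 measures 0.206). Relative to this mean, Klf2 differed by 0.08 (exact permutation p = 0.817) and Klf4 by -0.24 (exact permutation p = 0.643), with overlapping genotypes. The early gene mean had an SD of 0.93 in WT, against 0.62 for Klf2 and 0.29 for Klf4. Subtracting it left WT SDs of 0.63 for Klf2 and 0.98 for Klf4, so overlap and a large p say little here. The part of the early gene response in the rise of Klf2 and Klf4 was not tested further. KO 5 and KO 1 had the lowest list means of the KO libraries, and they held the highest and the lowest Klf4 value of that genotype. For Klf2, KO 1 (9.125) and KO 5 (9.238) were the lowest KO libraries, and WT 2 (8.972) was the highest WT library.

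**Figure D3:**
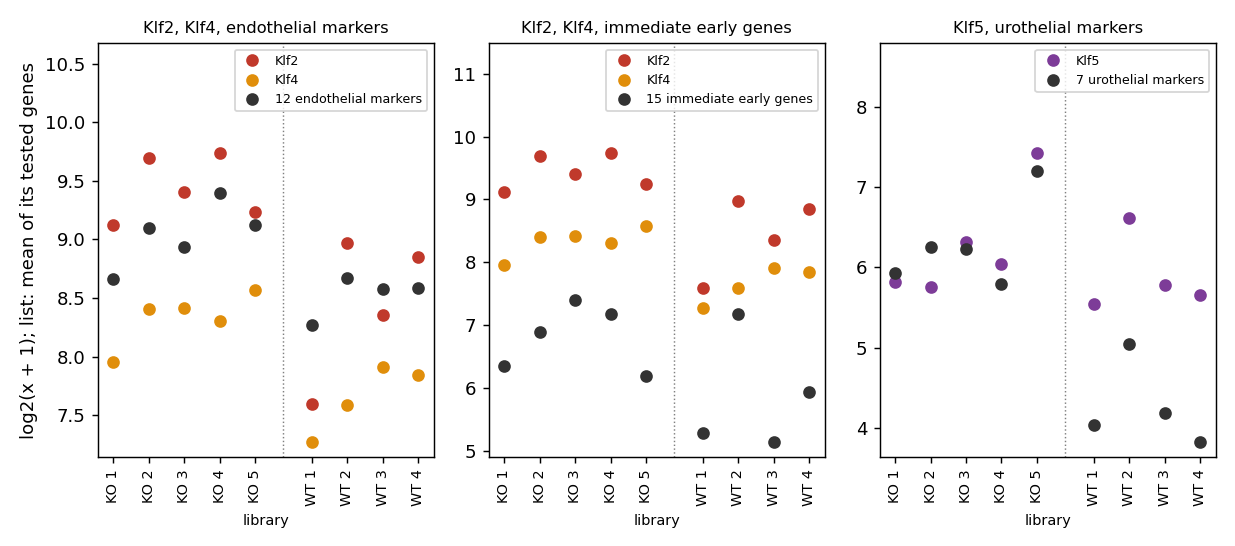
Library values of Klf2, Klf4 and Klf5 beside the mean log2(x + 1) of 12 endothelial markers, 15 immediate early genes and 7 urothelial markers; KO libraries are left of the dotted line and WT libraries right of it. The early gene mean of WT 2 (7.17) lies among the KO libraries, and KO 5 is highest for both Klf5 (7.419) and urothelial markers (7.20).

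Klf5 and Klf4 are also expressed in urothelium, the lining of the renal pelvis. Of 7 tested urothelial markers 6 rose and none fell (median difference 2.01), among them keratin Krt7 (0.80, SE 0.13, limma adjusted p = 0.000284), uroplakin Upk1a (2.06, SE 0.34) and keratin Krt15 (3.22, SE 0.54). Krt15 was at 3.248, 2.899, 2.77 and 0.141 in WT libraries 1 to 4, each below the filter level of x. It passed the filter through its KO libraries alone, so its difference rests on WT values near the floor. The list median is the difference of uroplakin Upk1b, which was also below that level in WT 1, 3 and 4 (2.292, 2.282 and 3.076). The call of Upk1b was lost in 7 of 23 alternatives, and 5 markers rose without KO 5, WT 1 or WT 3. The summed x of the 7 markers was 973 to 1780 in KO and 495 to 603 in WT, with none at 0 in all libraries and Krt5 below the filter. Krt7 (mean log2 value 9.65 in KO and 8.85 in WT) made the largest part of that sum in every library. The list mean was highest in KO 5 (7.20) among KO libraries and in WT 2 (5.04) among WT libraries, the same libraries in which Klf5 was highest. The summed x was instead highest in WT 3 among WT libraries, as was Krt7 (9.069). The summed x of 10 collecting duct markers was also highest in KO 5 (8493), but it was lowest in WT 2 (4878). The mean of the collecting duct list was highest in KO 1 (8.945). The part of urothelial or collecting duct content in the Klf5 values was not tested.

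Other cell types gave a mixed picture. Of 10 markers of fibroblasts, pericytes and smooth muscle 2 rose (median 0.53; Dcn, the proteoglycan decorin, 0.66, SE 0.14, limma adjusted p = 0.00378). That count depended on the scaling: it was 4 with scaling to the library total, 7 with Rn45s left out of that total and 6 with upper-quartile scaling over tested genes. Of 10 proximal tubule markers 4 fell (median -0.64), among them the organic anion transporter Slc22a8 (-1.32, SE 0.13, adjusted p = 1.09e-06). The most abundant, Kap, had no call (-0.67, SE 0.23, adjusted p = 0.0604), nor had Slc5a2 (0.08, adjusted p = 0.719) and Slc5a12 (0.04, adjusted p = 0.887). Of 6 loop and distal tubule markers 4 rose (median 0.48), among them Calb1, a calcium-binding protein (0.58, SE 0.15). The most abundant of them, Umod, went the other way without a call (-0.47, SE 0.17, adjusted p = 0.067). Of 10 collecting duct markers 3 rose (median 0.12), among them the anion exchanger Slc4a1 (0.96, SE 0.20), while Aqp3 was at -0.24 (adjusted p = 0.583). The mean of the collecting duct list differed by 0.19, with overlapping genotypes (exact permutation p = 0.413, two-sided, adjusted over 13 measures 0.447). List means did not overlap between genotypes for markers of podocytes (difference 0.41), proximal tubule (-0.62), fibroblasts, pericytes and smooth muscle (0.55) and urothelium (2.01). Each of these had an exact permutation p of 0.00794, the smallest possible, and an adjusted p of 0.0258. Means of the other cell type lists overlapped, that of loop and distal tubule markers differing by 0.34 (exact permutation adjusted p = 0.0516). Of 8 macrophage and dendritic markers 1 fell (Csf1r, -0.48, SE 0.11), none of 2 tested lymphocyte markers passed (0 at an unadjusted p below 0.05), and none of 7 red blood cell genes did (6 at an unadjusted p below 0.05, median 0.81), although all 7 rose without WT 2. Counts of these lists depended on single libraries: without WT 1, 2 loop and distal tubule markers, 1 collecting duct marker and 4 markers of fibroblasts, pericytes and smooth muscle rose, and without KO 4 or WT 4 it was 2 loop and distal tubule markers. A fall of 1 loop and distal tubule marker appeared without WT 1, without WT 2, and without WT 2 and KO 4. Likewise 1 collecting duct marker fell without WT 2. Without KO 1, 4 markers of fibroblasts, pericytes and smooth muscle and 2 red blood cell genes rose.

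Among glucocorticoid-induced genes the calls went both ways, while Klf9 and Klf15 did not pass. Of 14 tested 7 rose and 2 fell (median difference 0.64). Sgk1, a kinase of sodium transport, had 10.782, 10.604, 10.576, 10.315 and 10.177 in KO, against 8.68, 8.987, 8.787 and 9.146 in WT, and rose by 1.59 (SE 0.13, limma adjusted p = 1.59e-07). Tsc22d3, which encodes the anti-inflammatory protein GILZ, rose by 1.55 (SE 0.12, adjusted p = 7.59e-08), and Per1, also a clock repressor with E-boxes, by 1.16 (SE 0.19, adjusted p = 0.000319).

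Fkbp5, a chaperone of the glucocorticoid receptor, had 8.467, 8.666, 8.531, 7.666 and 9.069 in KO, against 9.329, 9.336, 10.006 and 9.836 in WT, and fell by 1.15 (SE 0.21, limma adjusted p = 0.00131). It and the lipase inhibitor Angptl4 (-1.01, SE 0.27, adjusted p = 0.0159) were named here after their values were seen. The glucocorticoid receptor Nr3c1 was at -0.16 (adjusted p = 0.373) and Hsd11b2, which inactivates corticosterone, at -0.04 (adjusted p = 0.898), while Hsd11b1, which regenerates it, fell by 1.73 (SE 0.15, adjusted p = 2.18e-07). That was 1 of 3 tested corticosteroid receptors and enzymes, the mineralocorticoid receptor Nr3c2 being below the filter.

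Of 8 tested genes linked to Klf15 in heart, muscle or liver 3 rose and 1 fell (median difference 0.34), beside the Klf15 difference of -0.21. Kcnip2, a potassium channel subunit that Klf15 activates in heart, had 7.165, 7.28, 7.92, 7.142 and 7.84 in KO, against 5.646, 4.255, 5.098 and 3.539 in WT. All KO libraries lay above all WT libraries, by 2.83 on average (SE 0.34, limma adjusted p = 1.37e-05). Acss1, a mitochondrial acetyl-CoA synthetase, rose by 0.38 (SE 0.10, adjusted p = 0.0154), and Bcat2, of branched-chain amino acid breakdown, by 0.68 (SE 0.19, adjusted p = 0.0197). Gpt, an alanine aminotransferase, was the one that fell (-0.70, SE 0.22, adjusted p = 0.0455), and without KO 2, 4 or 5 or any single WT library none fell. Of 8 tested genes of TGF-β signalling, which induces Klf10, none passed by limma (2 at an unadjusted p below 0.05, median -0.06; Tgfb3 1.38, SE 0.49, adjusted p = 0.0703), and 1 passed without WT 3.

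**Figure D4:**
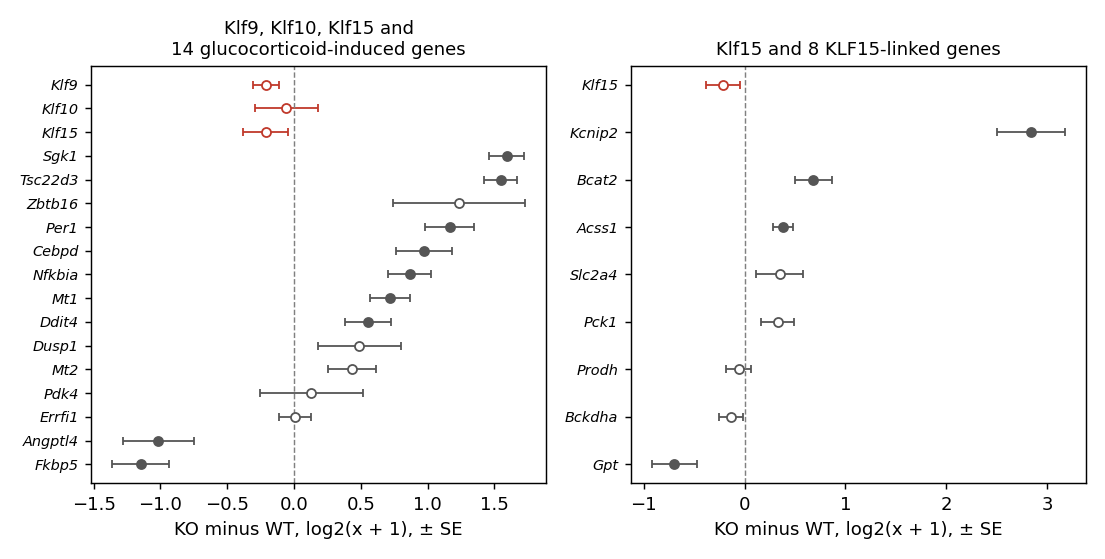
Difference KO minus WT on the scale log2(x + 1), with SE, of Klf9, Klf10 and Klf15 (red) beside 14 glucocorticoid-induced genes (left) and of Klf15 beside 8 genes linked to it (right). Filled points have a limma adjusted p below 0.05; the red points are open, at -0.21, -0.06 and -0.21, while Sgk1 (1.59) and Kcnip2 (2.83) are filled.

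The genes whose values ran most like those of Klf2 and Klf4 were found by the mean absolute difference over 9 libraries after centring each gene, among 12614 tested genes. For Klf2 they were Tcf7l1 (0.17), Fmnl2 (0.17) and Vaultrc5 (0.18). Tcf7l1, a transcription factor of the Wnt pathway, had 8.286, 8.309, 8.288, 8.52 and 8.489 in KO, against 6.643, 7.862, 7.199 and 7.465 in WT, and it shared the low WT 1 value with Klf2. For Klf4 they were Dlgap4 (0.09), Shisa4 (0.10) and Plagl1 (0.12), with values for Dlgap4 of 8.464, 8.769, 8.776, 8.631 and 8.757 in KO, against 7.926, 8.005, 8.293 and 8.188 in WT.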

How the data were processed

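The members and gene lists were chosen with earlier results of these data known, so no list is independent evidence. Per the labels' protocols, kidney RNA was extracted with Trizol and 500 ng entered Lexogen QuantSeq 3′ libraries. Per the submitters' processing notes, Bowtie2, bedtools and the build mm10 were used. The normalization tool, annotation, strand setting and versions: not given in the sources used here. The deposited values are log2(x + 1), where x is a number of reads after the authors' adjustment to a common library size. They are not counts, so no count model was used.

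The main test was limma 3.58.1 (R 4.3.3) on the deposited log2 values of 9 libraries, with genotype alone in the model and a variance prior that follows expression level. Genes with x of at least 10 in at least 4 libraries were tested, 13481 in all, and two-sided p-values were adjusted over them by Benjamini-Hochberg at a threshold of 0.05. The fit was run on simulated data with independent noise for each gene. Those data hold no shifts shared by many genes of a library, so the run does not check error rates under such shifts. Library measures were compared by exact permutation over 126 splits, with a smallest possible p of 0.00794. Endothelial and early gene references for Klf2 and Klf4 were added after the data were seen. Named genes were the members, up to 3 genes of each list with the smallest p, the most abundant cell type markers, and the 3 genes nearest in pattern to each called member, predicted genes left out; not every gene that this rule gives is described. Gene positions are from GENCODE vM21 (GRCm38, the assembly of mm10). Alternatives covered scaling, filter, pseudocount, covariate, variance prior, replicate block and leaving out libraries.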

Additional observations from a re-analysis of the deposited data

Results flagged for a closer look

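Klf12 had 1 library far from the others of its genotype: KO 3 stood at 8.105, and the nearest KO library, KO 4, at 7.733. The gap was 0.75 of the range of the 5 KO libraries, above Dixon's 95% critical value of 0.71 for 5 samples. This was the single case among 20 groups checked (10 genes in 2 genotypes), and chance gives about 1 in 20. Without KO 3 the Klf12 difference was -0.29 (limma adjusted p = 0.34), so it had no call with or without that library.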

How the results depend on the processing

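Klf4 was called higher in all 23 alternatives (0.55 to 0.78) and Klf2 in 22 of 23 (0.67 to 1.17), the lowest Klf2 value with Rn45s as a covariate (adjusted p = 0.02). The exception for Klf2 was the variance prior without trend (adjusted p = 0.0507), which left 1 member called. No other member was called in any alternative. Leaving out 1 library gave 0.71 to 1.17 for Klf2 and 0.55 to 0.77 for Klf4. Of the uncalled members, Klf10 was above 0 in 6 and below 0 in 17 alternatives, and Klf6 below 0 in 1. Over all genes, calls were 831 higher and 1106 lower; upper-quartile scaling gave 504 higher, scaling to the library total without Rn45s 1272 higher and 695 lower, and the prior without trend 734 lower. The share of calls that were higher was 42.9% as deposited, 36.4% with upper-quartile scaling (58.1% over tested genes, added after the data were seen), 50.5% after quantile normalization, 56.8% with scaling to the total and 64.7% without Rn45s in it, where the median of all genes moved to 0.105. The cause was not tested.

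Same-numbered libraries of the 2 genotypes correlated in their deviations at 0.151, 0.001, -0.007 and 0.041, the first being the highest of all pairs compared. These correlations alone do not settle whether the replicate numbers pair libraries. With the replicate block on numbers 1 to 4, Klf2 was at 1.05 (SE 0.14, adjusted p = 0.00046) and Klf4 at 0.62 (SE 0.14, adjusted p = 0.0125), with 740 higher and 999 lower over all genes. On the same 8 libraries without the block, calls were 677 and 957, and the SE was 0.23 for Klf2 and 0.17 for Klf4. That unblocked fit is the same as leaving out KO 5, so all counts out of 23 alternatives include it under both names. Among named list genes, calls of Gpt and Wt1 were lost in 15 of 23 alternatives, Ddit4 in 12, Myc in 11 and Bcat2 in 5. List counts also moved with scaling: of the podocyte markers 2 rose as deposited, 1 after upper-quartile scaling and 4 where Rn45s was left out of the total, loop and distal tubule markers 2 with upper-quartile scaling (4 as deposited) and genes linked to Klf15 1 with upper-quartile scaling (3 as deposited). The raw depth is unknown, so no counting interval is given.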
